A study of Mus musculus with 4 samples.

Results

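The Nanog gene cluster of mouse chromosome 6 holds Apobec1, Gdf3, Dppa3, Nanog and Slc2a3 next to each other, and these 5 genes are the members described here. Their neighbourhood was taken from 50 kb before Apobec1 to 50 kb after Slc2a3, chr6:122477810-122801658 in the mm9 build, a stretch of 323849 bp. It held 14 of the 15311 RAD21 sites of the embryonic stem cell (ESC) list and 6 of the 11022 sites of the embryoid body (EB) list, and each of the 6 EB sites overlapped an ESC site. Of the neighbouring protein-coding genes that lie at least in part in it, 3 are described beside the members, Mfap5, Foxj2 and C3ar1.

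RAD21 was mapped by chromatin immunoprecipitation and sequencing (ChIP-seq) in R1/E ESCs at day 0 and in EBs grown from them until day 12 of differentiation. Each cell type had 1 RAD21 library and 1 IgG control library, 4 libraries in all, so that the comparisons below are between libraries and no test across conditions could be made. The cells carried RAD21 with a GFP tag from an added bacterial artificial chromosome, beside their own untagged Rad21 gene, and the tag was precipitated with a goat antibody against eGFP. The controls were precipitated from the same cell types with a goat IgG isotype antibody, although their descriptions name input DNA. EBs are mixtures of differentiating cells, and a site bound in fewer cells cannot be told apart from a site bound less in each cell. The autosomes held 13714772 ESC RAD21 reads and 7740389 EB RAD21 reads, and the IgG libraries held 12602155 and 6929293.

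RAD21 belongs to cohesin, a protein ring that keeps sister chromatids paired and folds chromosomes into loops. On mammalian chromosomes cohesin accumulates where the zinc finger protein CTCF binds its motif, and in ESCs also at enhancers and promoters of active genes. Nanog encodes a homeodomain transcription factor of the pluripotency network, Dppa3 (Stella) a maternal factor that protects DNA methylation in the early embryo, and Gdf3 a ligand of the TGF-beta family. Apobec1 encodes a cytidine deaminase that edits RNA, and Slc2a3 the glucose transporter GLUT3. Nanog, Dppa3 and Gdf3 are active in ESCs and are silenced as the cells differentiate.

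The sites were numbered 1 to 14 in the order of the chromosome, from before Apobec1 to the far side of Slc2a3. Sites 6, 7, 10, 11, 13 and 14 were in both lists and are called shared, and the other 8 were in the ESC list alone and are called ESC-only. A weight matrix for CTCF, learned from ESC sites on the other autosomes, had a match within 150 bp of the summit at 12 of the 14 ESC sites and 5 of the 6 EB sites. Over all sites of chromosome 6 the share was 83.3% for the ESC list and 80.8% for the EB list, and it was 2.44% around random positions of the chromosome. The counts of the neighbourhood were near these shares of the chromosome. The matches of the shared sites, and of the ESC-only sites at which the EB reads fell furthest, are printed first with 10 flanking bases, from 5′ to 3′ on the strand of the motif. Capitals mark the matched bases.
Site 6, plus strand of chr6:122610673-122610712: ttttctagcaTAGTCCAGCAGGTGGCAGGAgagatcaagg
Site 7, plus strand of chr6:122619548-122619587: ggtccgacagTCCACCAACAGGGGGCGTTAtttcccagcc
Site 10, minus strand of chr6:122670164-122670203: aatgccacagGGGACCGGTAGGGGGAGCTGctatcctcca
Site 11, plus strand of chr6:122690140-122690179: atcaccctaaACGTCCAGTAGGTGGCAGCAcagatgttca
Site 13, minus strand of chr6:122736473-122736512: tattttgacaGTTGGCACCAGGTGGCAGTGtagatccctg
Site 4, minus strand of chr6:122564252-122564291: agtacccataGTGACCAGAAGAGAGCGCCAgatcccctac
Site 5, minus strand of chr6:122583623-122583662: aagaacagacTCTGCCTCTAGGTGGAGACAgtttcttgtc
Site 8, minus strand of chr6:122641471-122641510: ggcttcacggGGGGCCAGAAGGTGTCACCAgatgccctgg
Site 12, minus strand of chr6:122735078-122735117: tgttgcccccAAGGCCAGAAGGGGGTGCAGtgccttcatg

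Both sites without a match were listed in ESCs, namely site 9, the ESC-only site 4717 bp before the Nanog start, and site 14, the shared site 3070 bp before the most 5′ start of Slc2a3. At site 9 the best score in the window was -7.98, far below the limit of 11.3, and at site 14 it was 6.99. Site 9 is the site nearest to Nanog, and the ChIP-qPCR primer pair that the study named Nanog also lies there, at chr6:122652488-122652712. Its summit region on the plus strand, chr6:122652640-122652939, is shown because it is the only ESC-only site of the cluster without the motif, and capitals mark its 73 bases inside that amplicon.
Site 9: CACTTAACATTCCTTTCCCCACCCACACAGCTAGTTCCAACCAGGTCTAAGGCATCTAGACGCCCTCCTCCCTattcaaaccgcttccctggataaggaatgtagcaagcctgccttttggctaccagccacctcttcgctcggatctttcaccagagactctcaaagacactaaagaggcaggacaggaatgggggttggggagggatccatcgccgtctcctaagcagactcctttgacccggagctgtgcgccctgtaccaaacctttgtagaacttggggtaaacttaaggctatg

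Short patterns of other factors were searched on both strands within 150 bp of the 14 summits. The octamer ATGCAAAT, read by Oct factors such as Pou5f1, was found at site 6 alone, 131 bp from the summit, and 2.15% of the 1114 ESC sites of chromosome 6 held it. The Sox pattern CATTGTT was found at none of the 14, against 4.76% on the chromosome. TCAAGGTCA of Esrrb, GGGTGTGG of Klf factors and TTCCNGGAA of Stat factors were also found at none, against 1.26%, 2.87% and 1.08%. The E-box CACGTG was found at site 11 alone, in the Slc2a3 intron, against 4.76%. Site 9 held none of these patterns. Each was searched as a fixed word that only 1.08% to 4.76% of the ESC sites of the chromosome held. Its absence at a site therefore does not show that the factor is not bound there.

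Of the 12 CTCF matches, 4 lay on the plus strand (sites 3, 6, 7 and 11) and 8 on the minus strand. Their middle was 16 to 110 bp from the summit, with a median of 49 bp. Under a stricter limit, passed by 1e-05 in place of 1e-04 of random positions, 3 of the 14 sites kept a match (sites 1, 3 and 11), against 34.3% of the ESC sites of the chromosome. Site 7, which had the most RAD21 reads, was not among them.

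The neighbourhood was dense in sites. It held 43.2 ESC sites per Mb against 7.45 on chromosome 6, and 18.5 EB sites per Mb against 4.39. The chromosome was also cut into windows of the same length. None of the 449 others held as many ESC sites (median 2, highest 11), and 1 held more than 6 EB sites. As a description of these libraries, the ESC RAD21 reads over IgG reads were 1.32 (95% interval 1.25 to 1.39) over the whole neighbourhood, which was higher than in 448 of the 449 windows. The EB ratio was 1.31 (1.20 to 1.45), higher than in 443. Here and below, intervals are exact (Clopper-Pearson), hold at the 95% level and cover counting error only.

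**Figure D1:**
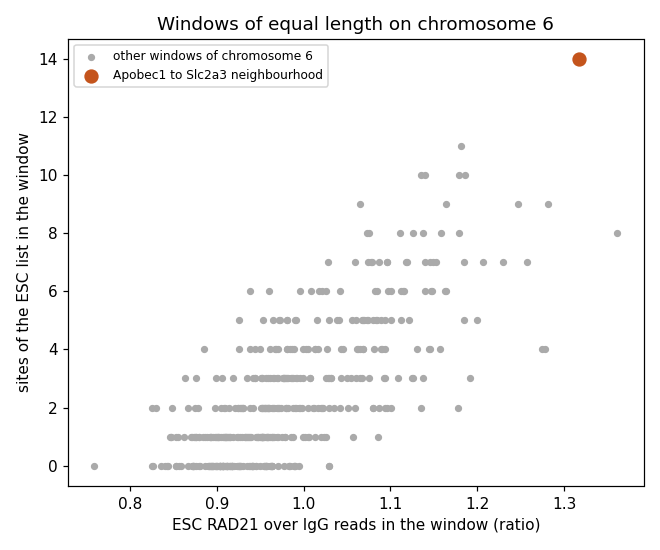
ESC sites (y axis, number) against the ratio of ESC RAD21 to IgG reads scaled to autosomal reads (x axis) in windows of equal length on chromosome 6, 1 point per window. The neighbourhood (orange) lies at 14 sites and a ratio of 1.32, and the highest of the 449 other windows (grey) held 11 sites.

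Of the 12 sites from site 3 on, 8 were intergenic and 4 lay in introns, 1 of Apobec1 and 3 of Slc2a3. None of these 12 was within 1 kb of an annotated start of the genes described. Gaps between neighbouring summits ran from 1392 bp, between sites 12 and 13, to 44840 bp, between sites 11 and 12, with a median of 18545 bp. The 81.1 kb between the Dppa3 and Nanog starts held 5 sites. The nearest listed sites beyond the limits lay 7718 bp before it, with 25 ESC and 20 EB RAD21 reads, and 7753 bp after it, with 19 and 0. The first site inside lay 32310 bp from the limit and the last 46638 bp.

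**Figure D2:**
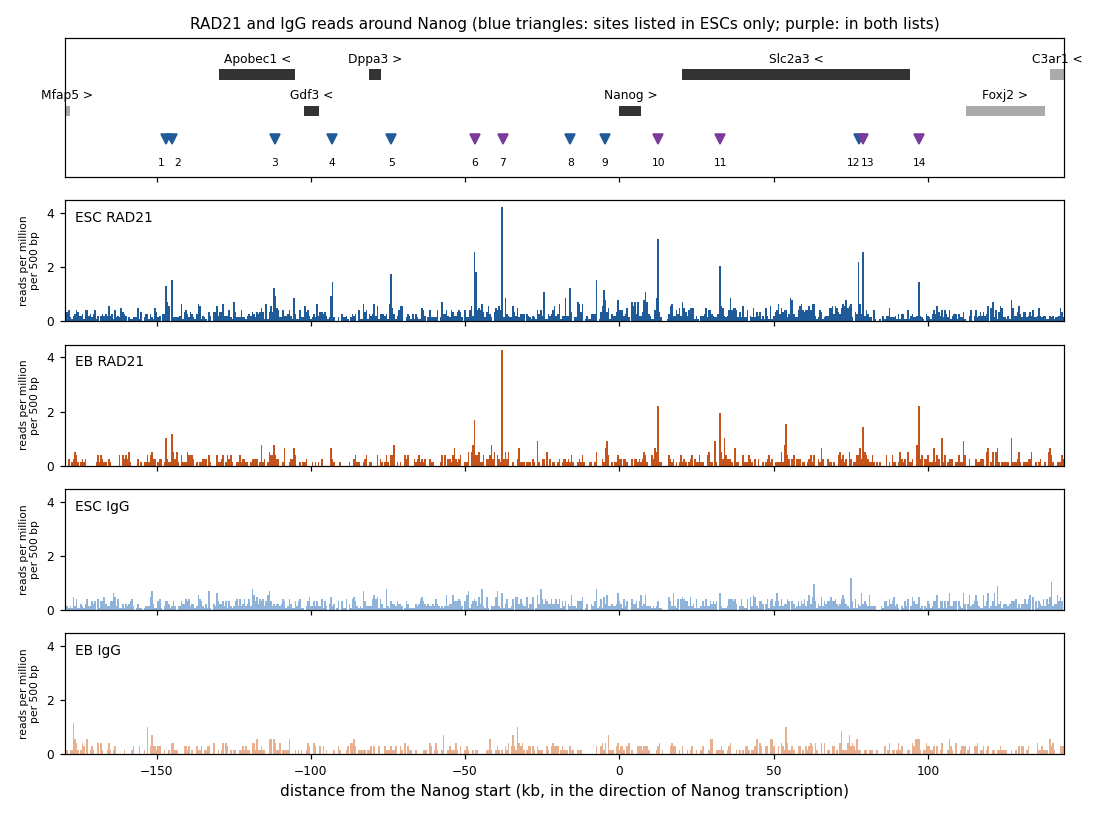
RPM (reads scaled to the autosomal total) in 500 bp bins (y axis) of the 4 libraries against the distance from the Nanog start (x axis, kb), with the genes described here (members dark, arrowheads for strand) and the 14 numbered sites on top. The tallest bins of both RAD21 libraries stood at site 7, between Dppa3 and Nanog, and the IgG libraries had no such bin there.

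Each read was shifted to the middle of its fragment, and the windows reached 250 bp to either side of an ESC summit. The lists were called on these same reads, so that high ESC counts at all sites and lower EB counts at ESC-only sites follow in part from how the sites were chosen, and are given as a description. At the ESC-only sites the ESC RAD21 reads ran from 16 to 30 with a median of 21, and the EB reads from 1 to 12 with a median of 6. At the shared sites they ran from 22 to 57 with a median of 34.5, and from 11 to 33 with a median of 15. The ranges of the EB reads overlapped between both kinds of site.

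The first 2 sites, which lay between the limit and Apobec1, differed between the cell types by less than counting error. Site 1 had 16 ESC and 8 EB RAD21 reads over 4 and 0 IgG reads. At site 2 the reads were 19 and 12 over 3 and 4. Scaled to autosomal reads, EB over ESC was 0.886 (0.328 to 2.19) at site 1 and 1.12 (0.495 to 2.43) at site 2. Both were in the ESC list alone, yet both had EB reads near the 9.03 and 10.7 that the ESC level would give at the EB depth.

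Site 3 lay in an intron of Apobec1, 4386 bp inside the gene from a start, and had 24 ESC and 7 EB RAD21 reads over 2 and 4 IgG reads. Its EB over ESC ratio was 0.517 (0.188 to 1.24), an interval that spans 1. In EBs its RAD21 reads were 1.57 times the IgG reads (0.398 to 7.30), so that enrichment there was not detectable at this depth.

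Site 4 (chr6:122564001 is its first base) lay 4199 bp before the Gdf3 start and had 29 ESC and 7 EB RAD21 reads over 4 and 0 IgG reads. EB over ESC was 0.428 (0.158 to 0.998), so that the EB library was lower by a margin just outside counting error. The EB reads were still at least 1.29-fold above IgG by the exact interval, or 2.09-fold when the 0 IgG reads are set to the 3 that such a count allows. Site 5 (from chr6:122583218) lay 6854 bp beyond the nearer of the annotated Dppa3 starts and had 23 and 4 RAD21 reads over 5 and 2 IgG reads. Its ratio was 0.308 (0.0775 to 0.902), below 1 over the whole interval.

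Between Dppa3 and Nanog, sites 6 and 7 were shared and strong. Site 6 (from chr6:122610236) had 36 ESC and 14 EB RAD21 reads over 8 and 1 IgG reads, with an EB over ESC ratio of 0.689 (0.343 to 1.31). Site 7 (from chr6:122619126), 37843 bp before the Nanog start, had 57 and 33 over 8 and 0, the most in each RAD21 library, and the highest scores of both lists in the neighbourhood (299 in ESCs and 284 in EBs). Its ratio was 1.03 (0.647 to 1.60), and its EB reads were at least 7.57-fold above IgG by the exact interval, or 9.85-fold against a floor of 3 IgG reads. The difference between the cell types at site 7 was within counting error.

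The next 2 sites before Nanog were ESC-only. Site 8 (from chr6:122641178), 15906 bp before the start, had 17 ESC RAD21 reads and 1 EB read over 2 and 2 IgG reads. The ESC level would have given 9.59 EB reads, and the ratio was 0.104 (0.00249 to 0.665), the lowest of the 14. Of the 35-mers in its window, 73.3% occur once in the genome, the lowest share of the 14 sites, and 10 sites had 100%. Site 9 (from chr6:122652372) had 19 and 5 RAD21 reads over 6 and 2 IgG reads, and its ratio was 0.466 (0.136 to 1.29). In ESCs its RAD21 reads were 2.91 times the IgG reads (1.12 to 8.90), the lowest of the 14 sites. Counted around the middle of the ChIP amplicon instead, 190 bp from the summit, the RAD21 reads were 20 in ESCs and 0 in EBs over 6 and 1 IgG reads, so that ESCs were at least 2.79-fold higher by the exact interval, or 3.76-fold against the floor. The 2 windows overlap and their EB counts of 5 and 0 were small. Whether the difference near Nanog depends on where within this site the reads are counted was not tested.

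Beyond Nanog, site 10 (from chr6:122669339) lay 12636 bp from the Nanog start and was shared. It had 40 ESC and 18 EB RAD21 reads over 4 and 4 IgG reads, with a ratio of 0.797 (0.430 to 1.42). Site 11 (from chr6:122689624), in a Slc2a3 intron 2071 bp inside a start, had 31 and 14 over 7 and 2, with a ratio of 0.800 (0.393 to 1.55). Neither differed between the libraries beyond counting error.

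Sites 12 and 13 lay in the long Slc2a3 intron with their summits 1392 bp apart and had similar ESC counts. Site 12 (from chr6:122734832) had 30 ESC and 3 EB RAD21 reads over 3 and 1 IgG reads, and site 13 (from chr6:122736105) had 33 and 11 over 5 and 0. EB over ESC was 0.177 (0.0346 to 0.570) at site 12 and 0.591 (0.269 to 1.20) at site 13. In EBs site 13 was at least 2.25-fold above IgG by the exact interval, or 3.28-fold against the floor of 3 reads, while at site 12 the 3 reads over 1 IgG read left enrichment not detectable (2.69-fold, 0.216 to 141). The intervals of the EB over ESC ratios of both sites overlapped, and their difference was not tested. Site 14 (from chr6:122754369) had 22 and 16 RAD21 reads over 5 and 4 IgG reads, and a ratio of 1.29 (0.633 to 2.57), the highest of the 14.

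**Figure D3:**
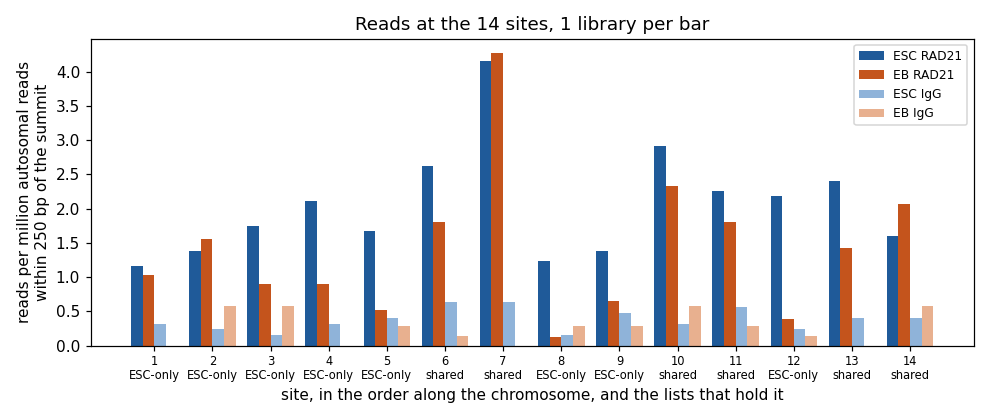
RPM (scaled to autosomal reads) within 250 bp of the ESC summit (y axis) at the 14 sites (x axis, in chromosome order) in the 4 libraries, 1 bar per library. Site 7 was the highest in both RAD21 libraries, and the shortest EB RAD21 bars stood at sites 8 and 12.

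Over the 14 sites, 11 had an EB over ESC ratio below 1, 7 of the 8 ESC-only and 4 of the 6 shared. The whole interval was below 1 at 4 sites (sites 4, 5, 8 and 12) and above 1 at 0. Over all autosomal ESC sites these shares were 22.6% and 10.1%, so that the count of lower sites was near the background. The share of listed sites in both lists was 48.5% for the ESC list and 67.8% for the EB list over the whole series, against 6 of 14 and 6 of 6 here. Summed over the ESC-only sites the RAD21 reads were 177 in ESCs and 47 in EBs, with a ratio of 0.470 (0.334 to 0.652). Over the shared sites they were 219 and 106, with a ratio of 0.858 (0.674 to 1.09).

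The scale of the libraries bears on each of these ratios. Chromosome 6 held 7.16% of the ESC and 6.03% of the EB autosomal RAD21 reads, and 7.26% and 6.09% of the IgG reads. Scaled to the reads of chromosome 6, 2 sites (8 and 12) had a whole interval below 1, against 20.9% of the ESC sites of the chromosome. The IgG reads of the neighbourhood itself were lower in EBs, at 2078 ESC and 738 EB reads, a scaled ratio of 0.646 (0.593 to 0.703). RAD21 reads outside the sites gave 0.623 (0.575 to 0.674), and 24 of the 449 windows had a lower IgG ratio. Over the whole neighbourhood the RAD21 ratio was 0.645 (0.601 to 0.691), the size of the IgG ratio. The neighbourhood had a GC content of 45.2% against a median of 40.7% of the windows. The 56 windows within 1 point of it had a median IgG ratio of 0.728, and 3 of them had a lower ratio than the neighbourhood. What part GC content or any other cause has in this was not tested.

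Set against the IgG reads of the neighbourhood, site 12 alone kept a whole interval below 1, at 0.274 (0.0536 to 0.882). Site 7 moved to 1.59 (1.00 to 2.48), with its lower limit at 1.00. On this scale, which was chosen after the data had been seen, the summed ratio was 0.728 (0.516 to 1.01) at the ESC-only sites and 1.33 (1.04 to 1.68) at the shared sites. These intervals take the IgG ratio of 0.646 as known and leave out its own counting error (0.593 to 0.703). Whether site 7 and the shared sum lie above 1 is therefore not settled. Scaled to chromosome 6 the sums gave 0.559 (0.396 to 0.775) and 1.02 (0.800 to 1.29). A scale moves both sums by 1 common factor, so that their order does not depend on the scale. How much of the order follows from the listing was not tested. The point value of the shared sum lay below 1 on the autosomal scale and above 1 on the chromosome 6 and neighbourhood IgG scales. The median log2 ratio of the 14 sites was -0.58 on the autosomal scale and 0.053 on the neighbourhood IgG scale. Over the merged sites of both lists, scaled to autosomal reads, it was -0.28 on chromosome 6 and 0.03 on the autosomes. These merged sets hold 167 and 3419 sites of the EB list alone, against 0 here, so that the medians are not like for like. By kind, the shared sites had -0.28 here, 0.19 on chromosome 6 and 0.38 on the autosomes. The ESC-only sites had -0.997, -1.22 and -1.11.

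**Figure D4:**
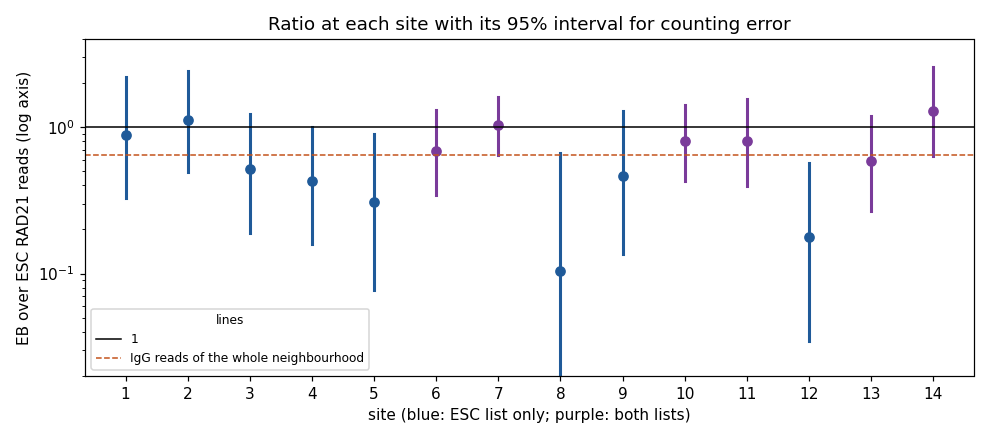
EB over ESC ratio of RAD21 reads at each site (y axis, log scale, reads scaled to autosomal reads) with its 95% interval for counting error. The interval of site 8 reaches below the axis. Sites 4, 5, 8 and 12 lie below 1 over the whole interval, and the dashed line is the ratio of the IgG reads over the whole neighbourhood, 0.646.

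The number of sites called was also compared at matched read totals, with another caller than that of the lists. A sliding-window caller applied to the same reads gave 16 ESC and 8 EB sites in the neighbourhood at full depth, of which 7 ESC sites overlapped an EB site. With the ESC libraries thinned to the EB read numbers in 3 draws, it gave 11 to 13 ESC sites. The 6 shared sites were called in all 3 draws, and so were 4 of the 8 ESC-only sites (2, 3, 4 and 12). Site 2 was also called in EBs. On chromosome 6 the same caller gave 1516 ESC and 862 EB sites at full depth, and 1018 to 1050 ESC sites after thinning. Only the library totals were matched, and with the lower EB share of IgG reads in the neighbourhood the thinned ESC libraries were still deeper there.

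The most 5′ starts of the genes had RAD21 levels closer to IgG than the sites had. The sites were called for RAD21 over IgG in these same reads and counted within 250 bp. This order therefore follows at least in part from how the sites were chosen and counted. The windows reached 1 kb to either side of the most 5′ start, and 1 read was added to both counts of a ratio to IgG. The starts of Mfap5 (chr6:122455863) and C3ar1 (chr6:122806179) lie outside the limits of the neighbourhood, which holds only part of these genes. In ESCs 0 of the 8 starts passed 2-fold over IgG, against 16.6% of the 21418 autosomal protein-coding genes. In EBs 2 did, Apobec1 and Mfap5, against 25.7%, and both had 1 to 3 IgG reads. The chromosome 6 mean of a window of this size was 12.5 reads in the ESC IgG library and 5.77 in the EB IgG library.

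The Nanog start (chr6:122657507) had the most reads of the 8 in the ESC RAD21 library, and also in both IgG libraries. It held 30 ESC and 8 EB RAD21 reads over 19 and 9 IgG reads. RAD21 over IgG, with no read added, was 1.45 (0.790 to 2.73) in ESCs and 0.796 (0.267 to 2.32) in EBs. EB over ESC was 0.472 (0.187 to 1.05), and all 35-mers of its window occur once in the genome. Enrichment of RAD21 at the Nanog start was therefore not detectable at this depth in either cell type. Against the chromosome 6 mean in place of its own IgG reads, the ESC reads at this start were 2.23-fold higher.

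Gdf3 and Dppa3 gave the lowest EB counts of the 8 starts. The Gdf3 start (chr6:122560105) had 21 ESC and 3 EB RAD21 reads over 13 and 4 IgG reads, and the Dppa3 start (chr6:122576428) had 13 and 3 over 8 and 4. EB over ESC was 0.253 (0.0483 to 0.848) at Gdf3 and 0.409 (0.0747 to 1.49) at Dppa3. Gdf3 was the start at which the whole interval lay below 1, and scaled to chromosome 6 it was 0.301 (0.0574 to 1.01). After adding 1 read, 11.2% of all genes were 2-fold or more lower in EBs and 13.2% were 2-fold or more higher. Among the 5 members 1 was 2-fold lower, Gdf3, and 0 were higher.

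The Apobec1 start (chr6:122552462) had 17 ESC and 9 EB RAD21 reads over 8 and 1 IgG reads. Its EB ratio over IgG of 4.48 after adding 1 read came with an EB over ESC ratio of RAD21 of 0.938 (0.368 to 2.22). The scaled EB over ESC ratio of its IgG reads was 0.227 (0.00512 to 1.70), an interval that spans 1. The most 5′ Slc2a3 start (chr6:122751658) had 14 and 7 over 12 and 5, at the level of IgG in both. Slc2a3 has 3 further annotated starts near its other transcripts. The one at chr6:122692280 had 14 and 15 over 9 and 3, an EB over ESC ratio of 1.90 (0.854 to 4.24), and the one at chr6:122692763 had 20 and 10 over 12 and 6. At the 4 Slc2a3 starts the interval of EB over ESC spanned 1 on the autosomal scale. Scaled to chromosome 6, the start at chr6:122692280 gave 2.26 (1.02 to 5.04), wholly above 1.

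Of the neighbours, Mfap5, a microfibril protein gene, had 21 and 9 RAD21 reads over 14 and 3 IgG reads at its start. Foxj2, a forkhead factor gene, had 6 and 7 over 15 and 6, and C3ar1, the receptor of the complement peptide C3a, had 9 and 5 over 7 and 5. At the annotated starts of these 8 genes, the most 5′ and the others, the interval of ESC RAD21 over IgG reached below 1. The EB interval lay wholly above 1 at the most 5′ Apobec1 start (8.06-fold, 1.12 to 353), at the Apobec1 starts chr6:122552388 and chr6:122552389 (8.95-fold, 1.27 to 389) and at the Slc2a3 start chr6:122692280 (4.48-fold, 1.27 to 24.1), over 1 to 3 EB IgG reads.

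**Figure D5:**
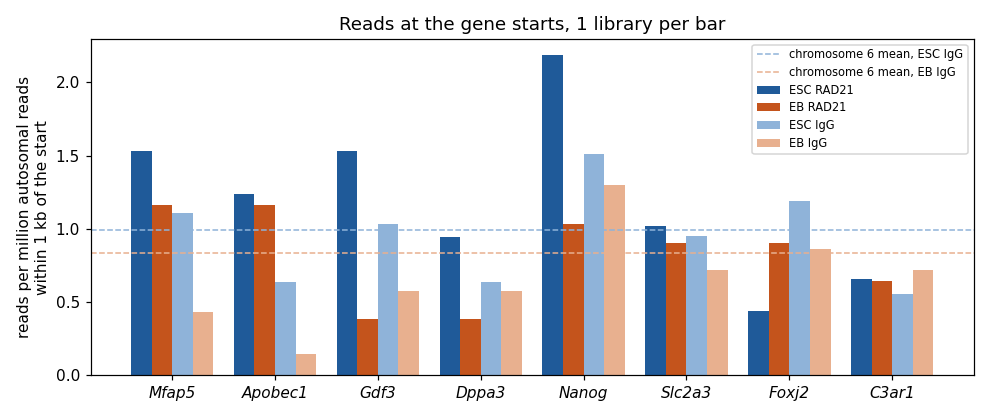
RPM (scaled to autosomal reads) within 1 kb of the most 5′ start (y axis) of the 8 protein-coding genes (x axis) in the 4 libraries, 1 bar per library, with dashed lines for the chromosome 6 mean of each IgG library. Nanog has the tallest ESC RAD21 bar, beside the tallest ESC IgG bar, and Gdf3 and Dppa3 have the shortest EB RAD21 bars.

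Sites near the gene starts were counted next. All 5 members had an ESC site within 25 kb of the start, against 38.6% of autosomal protein-coding genes, and 2 had an EB site, against 28.7%. These windows overlap along the cluster, so that 1 site can count for several genes. Among 24 other genes of the pluripotency network, 23 were found on the autosomes, and 14 of them had an ESC site and 6 an EB site within 25 kb. At their starts 7 of the 23 passed 2-fold over IgG in ESCs and 7 in EBs, against 16.6% and 25.7% of autosomal protein-coding genes. In EBs 7 were 2-fold or more lower and 0 were higher, against 11.2% and 13.2%. The 7 lower starts held 0 to 4 EB RAD21 reads each, and this difference was not tested. The median ESC ratio over IgG of the list was 1.58, against 1.43 for the 5 members and 1.18 for all genes. The median EB ratio over IgG was 0.806 for the members and 1.25 for all genes, and the median EB over ESC ratio of RAD21 was 0.514 and 1.09. The EB over ESC medians are scaled to autosomal reads. On that scale the whole neighbourhood gave 0.646 for IgG reads, and 0.623 for RAD21 reads outside its sites. The member starts were not rescaled to these levels.

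Prdm14, a repressor that keeps the naive state, had 27 ESC and 2 EB RAD21 reads over 3 and 4 IgG reads at its start, the highest ESC ratio over IgG in the list, 6.43. Pou5f1, which encodes Oct4, had 15 and 3 over 11 and 1, and Sox2 9 and 6 over 1 and 2. Nanog was thus closer to Pou5f1 than to Prdm14 in its ESC ratio over IgG, at 1.42 against 1.23 after adding 1 read. Among the 1084 autosomal genes with at least 10 IgG reads in each cell type, the 5 closest to Nanog in the ratios of both cell types were Pi15, Il31ra, Ptpn3, Clca6 and Gm8439. Their ratios ran from 1.38 to 1.51 in ESCs and from 0.783 to 0.826 in EBs. This likeness covers 2 ratios of 1 library pair each, and Nanog itself had 9 EB IgG reads.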

How the data were processed

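The data are ChIP-seq of RAD21-GFP with IgG controls in ESCs and EBs, 1 library per group, grouped by the sample labels. Per the labels the build was mm9, and the aligner is not given in the sources used here. The authors deposited aligned reads of 35 bases, 1 per line, whose counts per window were made here. The deposited peaks carry a score of MACS, -10 times the log10 of the p-value, from each RAD21 library against its IgG library, with no pooling, and the lowest score was 50.01. The deposited summits carry a signal, the height of piled-up reads, not scaled between libraries and not used for comparisons.

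Reads were moved to the centre of fragments of 206 bp (ESC) and 197 bp (EB), the lengths given by strand cross-correlation. No position was repeated on a strand of the autosomes. The ESC IgG file had 7 broken lines off the autosomes, and the EB IgG file ended on chromosome X in 1 broken line. Counts were scaled to autosomal reads. Intervals (95%, Clopper-Pearson) cover counting error only, and a count of 0 was taken to allow 3 reads. Genes and starts were those of GENCODE vM1 on mm9. A gene start was the most 5′ start of the protein-coding transcripts. The CTCF matrix of width 20 was learned on the 4000 ESC sites of highest score on the other autosomes, starting from a core of the known CTCF consensus. The caller slid 400 bp windows in steps of 50 bp, with a Poisson p of at most 1e-05 against the highest of the mean RAD21 density and the scaled IgG density over 1000 and 10000 bp. The windows, caller, matrix and 35-mer counts were tested on simulated data. The genes named were the members, the other protein-coding genes of the neighbourhood but for 1 that is not reported here, a list of 24 pluripotency genes and the 5 genes most like Nanog. Sites 1 to 14 were singled out from the deposited lists. Members and lists were chosen with earlier results of these data known. Python 3.11.15, NumPy 2.4.6, SciPy 1.17.1 and pysam 0.24.0 were used. Alternatives concerned scores, margins, calling, depth, counting windows, scaling, IgG, pseudocount, gene starts and motif limits.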

Additional observations from a re-analysis of the deposited data

Results flagged for a closer look

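At 5 of the 8 gene starts the RAD21 reads over IgG, after adding 1 read, lay on opposite sides of 1 in the 2 cell types, with 1 library pair each, and the difference was not tested. Over all autosomal protein-coding genes 39.5% did so. EB values below 1 stood beside ESC values above 1 at Nanog (0.806 against 1.42), Gdf3 (0.716 against 1.44), Dppa3 (0.716 against 1.43) and C3ar1 (0.895 against 1.15). Foxj2 went the other way, with 1.02 in EBs and 0.402 in ESCs. Site 8 was the only one of the 14 sites on opposite sides, with 0.597 in EBs and 5.51 in ESCs, each over 2 IgG reads, and this difference was not tested either.

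The sliding-window caller gave 3 windows that no deposited list held. In ESCs 1 lay 70656 bp before the Nanog start, with 14 RAD21 reads over 3 IgG reads, a ratio of 4.29 (1.20 to 23.3), and with 0 EB RAD21 reads, so that ESCs were at least 1.87-fold higher by the exact interval, or 2.63-fold against a floor of 3 reads. Another lay 7556 bp before the Nanog start, with 21 over 12 reads and a ratio of 1.61 (0.756 to 3.59). In EBs 1 lay 47556 bp before the Nanog start, next to site 6, with 10 over 1 reads and a ratio of 8.95 (1.27 to 389).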

How the results depend on the processing

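With a score of at least 100 the lists held 8 ESC sites, 1 EB site and 1 ESC site that overlapped an EB site. The shares of all ESC and EB sites that pass this limit were not counted. The score comes from a p-value and so depends on read depth, and the EB libraries were the smaller. The drop in EB sites at this limit is therefore not a measure of loss in EBs. At the stricter motif limit 3 ESC sites and 1 EB site kept a CTCF match. The sites lower in EB numbered 2 on the chromosome 6 scale, 7 with the median of shared sites set to 1 and 1 on the neighbourhood IgG scale (added after the data were seen). That last scale also counted 1 site as higher in EB, site 7, at a log2 ratio of 0.69. Its interval takes the scale as known, so that this count is not settled. With shared sites set to 1, and on the neighbourhood IgG scale, the shares over all ESC sites were not counted. Setting shared sites to 1 moves all sites by 1 common factor, so that the count of 7 cannot be set against a background. The median log2 ratio was -0.96 with shared sites set to 1 and 0.053, the opposite sign, on the neighbourhood IgG scale. For gene starts, shares over all genes were counted in the main setting only, so that the next counts have no background. Gene starts past 2-fold over IgG in ESCs numbered 2 within 500 bp and 1 against the chromosome 6 IgG level. In EBs 0 passed against the chromosome 6 IgG level and 1 at the start with the most ESC reads. At that start the EB log2 ratio over IgG was -0.84 at Apobec1, the opposite sign. Of the alternatives of single sites, 111 of 112 stayed within the counting interval of the site, and of single gene starts 95 of 96. These intervals were wide, so that staying within them was a weak check. Of 8 settings with an interval, it lay wholly below 1 in 8 at site 12, 7 at site 8, 6 at site 4 and 5 at site 5. It did so in 2 at site 9 and in 1 at sites 3, 6 and 13, and lay wholly above 1 in 1 at site 7. Apart from scaling and motif limits the causes were not tested. No paired analysis was possible because each group had 1 library, and no replicate could be left out. At 1 to 57 reads per site, changes smaller than the intervals were not detectable.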
